A study of Homo sapiens with 6 samples.

Results

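The transcripts described here are those of 10 genes of the epithelial to mesenchymal transition (EMT). They comprise the transcription factor genes SNAI1, SNAI2, TWIST1, TWIST2, ZEB1 and ZEB2 and the marker genes CDH1, CDH2, VIM and FN1. Members were taken by gene symbol, and each of the 10 had 1 probe set, out of 15669 named genes and 16965 probe sets on the array. RNA came from MDA-MB-231, an established human breast cancer cell line, in 3 groups of 2 arrays. One group carried the control hairpin shNCT and the others carried a short hairpin RNA against S100A10, either shS100A10_1 or shS100A10_5. In all 3 groups the hairpin was delivered by lentivirus and the cells grew under puromycin (2.5 µg/ml) in medium with 10% serum. Nothing in the labels tells whether both arrays of a group go back to different cultures. The p-values therefore reflect array-to-array spread that may be technical alone, and 2 arrays a group limit the precision.

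During EMT, epithelial cells give up cell-cell junctions and take on a motile, mesenchymal form. The SNAI and ZEB zinc finger proteins repress epithelial genes by binding E-boxes, short elements of the form CANNTG, in promoters such as that of CDH1, which encodes E-cadherin, while the TWIST proteins act as basic helix-loop-helix dimers. Cells that have passed through EMT usually carry N-cadherin (CDH2), the intermediate filament protein vimentin (VIM) and the matrix glycoprotein fibronectin (FN1). MDA-MB-231 is known as a mesenchymal-like line with little or no E-cadherin, so the question put to the arrays was whether a change in SNAI1 is accompanied by changes of the genes it is known to repress.

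The E-box core bound by SNAI1 and ZEB1, CAGGTG, reads CACCTG on the other strand. It was searched on both strands in the 250 bases before each annotated start in RefSeq's promoter sequences (GRCh38.p14), where 17.5% of all 35116 windows held at least 1 copy. Windows were matched for 6 of the 10 members, without SNAI1, SNAI2, TWIST1 and CDH1, and the hexamer was found before 1 of those genes, ZEB1. Of 16 genes listed as repressed by SNAI1, 10 had a window and 6 of those held the hexamer, 5 of them at least 2 copies. Counted by gene, over all starts of a gene, 20.6% of all 27305 genes with a window held the hexamer. At least 2 copies were held by 2.53% of all windows, a share per single window. Counted by gene, 312 of the 12728 named genes on the array with a window held 2 copies and 64 held 3 or more. The windows below belong to the polarity gene CRB3 and the tight junction genes CLDN7 and OCLN from that list, to the desmosome genes DSG2 and JUP, which changed with a hairpin, and to the member ZEB1. They are shown because they carry the element that links SNAI1 to its targets, with each copy of the hexamer in capitals and the transcription start following the last base. They were picked after the changes were known, and where a gene has several annotated starts, the window with the most copies is shown, or the one with the lower coordinate where they tie (OCLN). CRB3 lies on the plus strand (chr19:6464021-6464270), CLDN7 on the minus strand (chr17:7262479-7262728), OCLN on the plus strand (chr5:69492297-69492546), DSG2 on the plus strand (chr18:31497927-31498176), JUP on the minus strand (chr17:41785977-41786226) and ZEB1 on the plus strand (chr10:31318966-31319215).
CRB3: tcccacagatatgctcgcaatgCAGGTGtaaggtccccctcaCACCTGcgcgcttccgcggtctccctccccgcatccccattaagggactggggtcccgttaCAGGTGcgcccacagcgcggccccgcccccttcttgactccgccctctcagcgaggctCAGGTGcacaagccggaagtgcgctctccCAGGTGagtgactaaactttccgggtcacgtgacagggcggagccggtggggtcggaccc
CLDN7: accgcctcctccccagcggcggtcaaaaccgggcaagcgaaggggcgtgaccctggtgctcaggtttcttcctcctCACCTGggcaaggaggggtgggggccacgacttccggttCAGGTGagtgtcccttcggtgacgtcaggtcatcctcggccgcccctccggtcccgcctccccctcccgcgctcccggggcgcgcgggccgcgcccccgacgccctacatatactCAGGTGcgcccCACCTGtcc
OCLN: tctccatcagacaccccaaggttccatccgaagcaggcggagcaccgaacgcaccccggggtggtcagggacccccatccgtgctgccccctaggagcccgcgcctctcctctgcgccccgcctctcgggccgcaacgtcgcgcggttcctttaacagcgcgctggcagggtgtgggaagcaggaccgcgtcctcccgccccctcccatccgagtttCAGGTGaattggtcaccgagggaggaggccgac
DSG2: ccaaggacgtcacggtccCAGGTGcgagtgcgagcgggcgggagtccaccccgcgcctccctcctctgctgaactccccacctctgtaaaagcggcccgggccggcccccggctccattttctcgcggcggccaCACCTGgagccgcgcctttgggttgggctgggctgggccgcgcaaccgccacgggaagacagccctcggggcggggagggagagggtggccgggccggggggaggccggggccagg
JUP: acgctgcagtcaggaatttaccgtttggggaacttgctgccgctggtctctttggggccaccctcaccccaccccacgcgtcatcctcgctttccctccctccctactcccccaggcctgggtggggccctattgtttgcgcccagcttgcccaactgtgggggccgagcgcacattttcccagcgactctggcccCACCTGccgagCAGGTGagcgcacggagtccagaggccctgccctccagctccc
ZEB1: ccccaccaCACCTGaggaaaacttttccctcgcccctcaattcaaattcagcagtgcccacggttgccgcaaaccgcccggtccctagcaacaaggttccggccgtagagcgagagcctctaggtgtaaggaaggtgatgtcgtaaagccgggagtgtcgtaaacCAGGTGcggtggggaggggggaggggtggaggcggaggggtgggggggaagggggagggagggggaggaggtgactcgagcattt
CRB3 holds 5 copies, which begin 228, 208, 147, 89 and 60 bases before the start, and 0.074% of all windows hold 5 or more. CLDN7 holds 4, beginning 174, 135, 20 and 9 bases before the start. The OCLN window shown has 1 copy, 33 bases before its start, and a window of another OCLN start also has 1, at 133 bases. DSG2 has copies at 232 and 116 bases, JUP at 54 and 43 bases, and ZEB1 at 242 and 85 bases. A match describes these letters only and is not a measured binding site.

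On the arrays, S100A10 was 52.1-fold lower with shS100A10_1 and 8.02-fold lower with shS100A10_5 than with shNCT (limma, adjusted p = 1.71e-06 and 0.000442). The median intensity of an array was 232 to 238. All 6 markers fixed for a mesenchymal-like breast cancer line (VIM, CD44, CAV1, AXL, MSN and LGALS1) lay above 5.72 log2, the 95th percentile of 186 olfactory receptor probe sets, which served as a guide to dim signal because the table has no detection calls. Their summed intensity was 259241 and 261303 with shNCT, 272598 and 282028 with shS100A10_1, and 236837 and 239224 with shS100A10_5, and LGALS1 was lower with shS100A10_5 by 0.87 log2 (change -0.87; limma, adjusted p = 0.0483). That call was lost in 5 of the 6 fits without 1 array (all but the one without replicate 1 of shS100A10_5; adjusted p up to 0.235) and in 5 of 11 other settings (up to 0.0677). The 4 measured luminal markers, 3 of them above the guide, summed to 761 and 875, to 931 and 1057, and to 563 and 615. Of 4 leukocyte markers 1 lay above that level, of 3 endothelial markers 2 and of 3 fibroblast markers 0. Those fibroblast markers summed to 65.5 and 89.0 with shNCT, 98.1 and 110 with shS100A10_1, and 120 and 128 with shS100A10_5, and the part of these sums in the results was not tested.

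Of the 10 members, SNAI1 alone passed the test, and it did so with 1 hairpin. SNAI1 encodes Snail, the zinc finger repressor for which the E-cadherin promoter is the textbook target. Its normalized intensity was 60.4 and 50.5 with shNCT, 37.5 and 37.3 with shS100A10_1, and 162 and 213 with shS100A10_5. Both shS100A10_5 arrays stood above, and both shS100A10_1 arrays below, the pair of control arrays. On the log2 scale the level was 5.79 ± 0.18 (SD, n = 2) with shNCT, 5.22 ± 0.0069 with shS100A10_1 and 7.54 ± 0.28 with shS100A10_5.

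SNAI1 rose by 1.75 log2 with shS100A10_5 (SE 0.19, 95% interval 1.32 to 2.18), which is 3.37-fold (limma, adjusted p = 0.00563). It ranked 8 among all 16965 probe sets by size of rise. With shS100A10_1 its change was -0.56 (95% interval -0.99 to -0.13), with an unadjusted p of 0.0154 by limma and an adjusted p of 0.428. The difference between the hairpins was 2.31 log2, or 4.97-fold in measured signal (95% interval 1.88 to 2.75; limma, adjusted p = 0.00102). The shS100A10_1 level of 5.22 lay below the olfactory receptor guide of 5.72, so the size of that fold rests on a dim signal. Set against the guide itself, the mean shS100A10_5 level was 3.53-fold higher, a value without an interval, since the guide is a percentile of other probe sets. The order of the group levels was therefore shS100A10_1, shNCT and shS100A10_5, of which the lower neighbours did not differ past the threshold. The shNCT level, too, lay close to the guide. Without replicate 2 of shS100A10_5 the rise was 1.55 (limma, adjusted p = 0.0993), and without replicate 2 of shNCT it was 1.62 (adjusted p = 0.0537), so either array ended that call. The difference between the hairpins was called in each fit without 1 array, with limma's adjusted p from 0.00223 to 0.0420. In RNA from whole cultures, more cells with SNAI1 and more SNAI1 RNA per cell cannot be told apart.

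**Figure D1:**
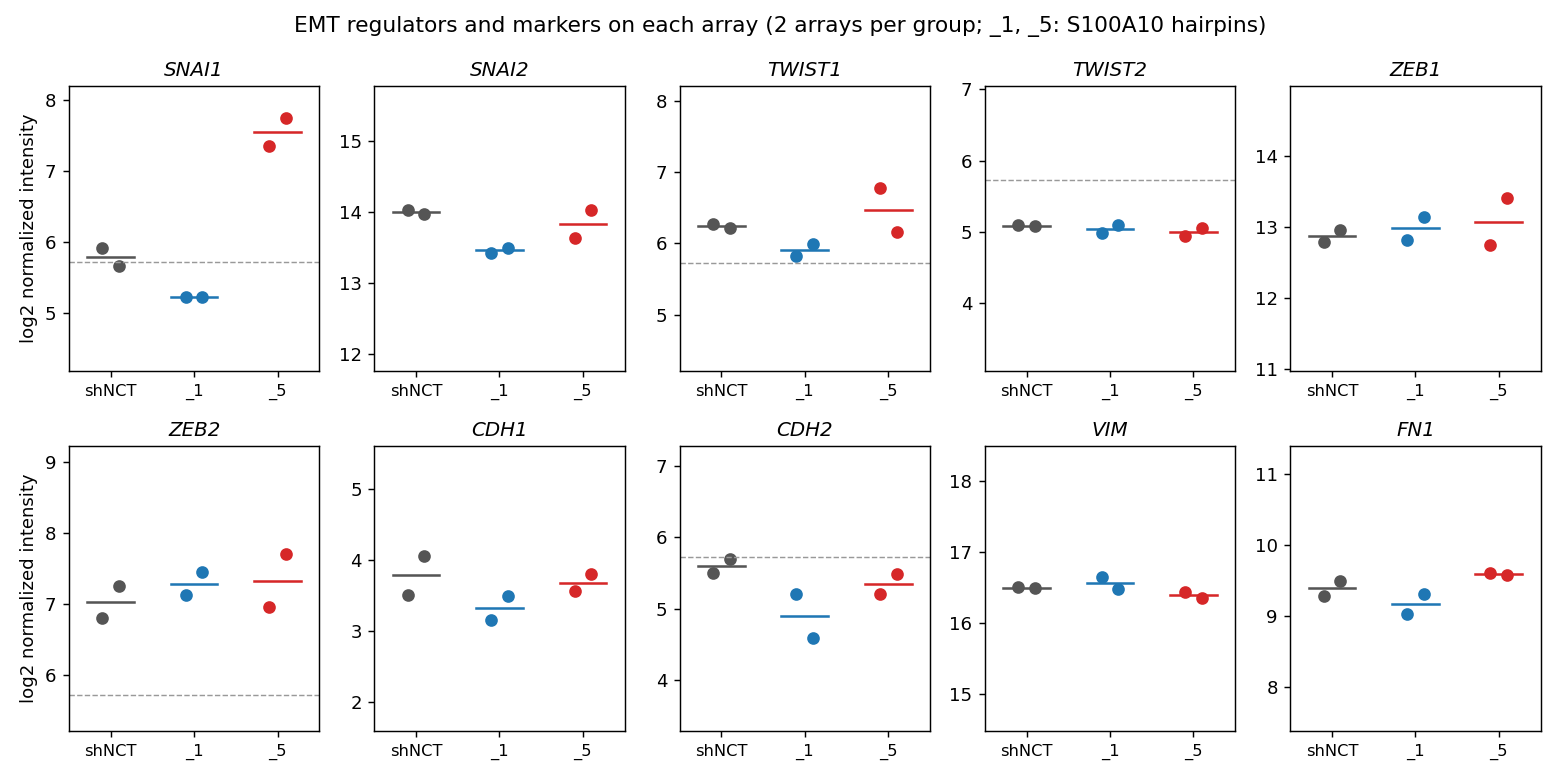
Log2 normalized intensity (vertical axis, with the same span in every panel) of the 10 members on each array, with 2 points per group and a bar at the group mean; the horizontal axis gives the group, and the dashed line at 5.72, where it falls within a panel, is the 95th percentile of the olfactory receptor probe sets. SNAI1 sits at 7.34 and 7.74 with shS100A10_5, against 5.66 to 5.92 with shNCT, while the other genes show small steps or overlapping points.

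Counted over the members, limma called 0 of 10 with shS100A10_1, where 0.189% of all probe sets were called (0.1% higher and 0.0884% lower). Where p was left unadjusted (under 0.05), 3 of the 10 lay below control (SNAI1, SNAI2 and CDH2) and 0 above, beside 8.44% of all probe sets (4.28% above and 4.16% below). With shS100A10_5, 1 of 10 was called, where 3.18% of all probe sets were (1.43% higher and 1.75% lower). By unadjusted p it was again 1, SNAI1, beside 21% of all (10.7% above and 10.3% below). Between the hairpins 1 of 10 was called, beside 2.91% of all (1.43% higher and 1.48% lower with shS100A10_5). There, an unadjusted p under 0.05 was reached by 3 members, SNAI1, TWIST1 and FN1, each above its shS100A10_1 level, beside 19.9% of all (10.1% above and 9.8% below). The median change over the members was -0.27 with shS100A10_1 and 0.05 with shS100A10_5, beside 0.01 and 0.02 over all probe sets. Both comparisons share the shNCT arrays. With shS100A10_1 both arrays lay outside the control arrays for 5 members, all lower, beside 42.4% of all probe sets (21.9% higher and 20.5% lower). With shS100A10_5 they did for 2 higher and 3 lower members, beside 50.5% (26.7% and 23.8%). Between the hairpins they did for 6 higher and 1 lower, beside 49% (25.6% and 23.4%). The share called over the whole array rested on few arrays: with shS100A10_5 it was 539 probe sets in all, 3 without replicate 2 of that group, 22 and 12 without replicates 1 and 2 of shNCT, and 994 without replicate 1 of shS100A10_5.

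Among the other regulators, SNAI2 gave a bright signal, above 95.4% of all probe sets. The gene encodes Slug, the closest relative of Snail and a repressor of the same epithelial promoters. Its intensity was 16695 and 16095 with shNCT, 11010 and 11595 with shS100A10_1, and 12730 and 16796 with shS100A10_5. Both shS100A10_1 arrays lay below the other groups, and the shS100A10_5 arrays spanned the controls. The change was -0.54 with shS100A10_1 (95% interval -0.95 to -0.12; limma, unadjusted p = 0.0163, adjusted p = 0.434) and -0.17 with shS100A10_5 (-0.58 to 0.25; adjusted p = 0.666). SNAI2 thus lay below its control mean in the group in which SNAI1 rose, with an interval that includes 0.

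ZEB1, a zinc finger and homeodomain repressor that holds cells in the mesenchymal state, was likewise bright, with intensities of 7053 and 7963 with shNCT, 7206 and 8999 with shS100A10_1, and 6822 and 10795 with shS100A10_5. The shS100A10_5 arrays were the lowest and the highest of the 6, so the group means could not be separated. Its change with shS100A10_5 was 0.20 (95% interval -0.32 to 0.72; limma, adjusted p = 0.683), and without replicate 2 of that group it was -0.14. ZEB2, its paralog, had intensities of 112 and 153 with shNCT, 140 and 175 with shS100A10_1, and 124 and 209 with shS100A10_5. The groups overlapped, and the changes were 0.26 and 0.30 (adjusted p = 0.868 and 0.562). For both ZEB genes the array numbered 2 was the brighter in each of the 3 groups.

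TWIST1, a helix-loop-helix factor of mesoderm formation, had intensities of 77.0 and 74.4 with shNCT, 56.6 and 63.9 with shS100A10_1, and 110 and 71.3 with shS100A10_5. Only replicate 1 of shS100A10_5 stood above the controls. The change with that hairpin was 0.23 (95% interval -0.26 to 0.71; limma, adjusted p = 0.603), and it was -0.09 without that array. The hairpins differed by 0.56 (0.07 to 1.04), with an unadjusted p of 0.0279 and an adjusted p of 0.193. TWIST2, its close paralog, stayed between 30.7 and 34.2 on all 6 arrays. Its mean log2 level of 5.04 lay below the olfactory receptor guide, and 22 of the 186 olfactory receptor probe sets were brighter, so its small changes of -0.05 and -0.09 concern a dim signal.

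CDH1, which encodes the adherens junction protein E-cadherin, gave a signal within the range of the olfactory receptor probe sets. Its intensity was 11.4 and 16.5 with shNCT, 8.86 and 11.2 with shS100A10_1, and 11.8 and 13.9 with shS100A10_5. The shS100A10_5 arrays lay between the control arrays, and the shS100A10_1 arrays below them. The change was -0.10 with shS100A10_5 (95% interval -0.59 to 0.39; limma, adjusted p = 0.841) and -0.46 with shS100A10_1 (-0.95 to 0.03; adjusted p = 0.626). Of the 186 olfactory receptor probe sets 147 were brighter, and 4.23% of all probe sets were dimmer, so the arrays give no level from which a further loss of CDH1 RNA could be read. CDH1 therefore cannot show whether the rise of SNAI1 was accompanied by repression of its best known target.

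Of the mesenchymal markers, VIM gave a signal above 99.8% of all probe sets. Its intensity was 92902 and 92358 with shNCT, 102872 and 91160 with shS100A10_1, and 88636 and 83402 with shS100A10_5. The shS100A10_5 arrays were the lowest 2 of the 6, but the change of -0.11 had a 95% interval of -0.48 to 0.27 (limma, adjusted p = 0.765). CDH2 was dim, with 45.1 and 51.8 with shNCT, 36.9 and 24.0 with shS100A10_1, and 37.0 and 44.7 with shS100A10_5. Both hairpins lay below the controls on every array. Its change with shS100A10_1, -0.70, was the lowest of any member with that hairpin (95% interval -1.20 to -0.20; limma, unadjusted p = 0.0113, adjusted p = 0.392), and with shS100A10_5 it was -0.25 (adjusted p = 0.577). Without replicate 2 of shS100A10_1 it was -0.39, no longer below SNAI1 and SNAI2 (-0.56 and -0.57), and without replicate 1 it was -1.01. Its mean log2 level of 5.28 also lay under the olfactory receptor guide.

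FN1, which encodes fibronectin, had intensities of 625 and 724 with shNCT, 525 and 638 with shS100A10_1, and 783 and 763 with shS100A10_5. The shS100A10_5 arrays were the highest 2 of the 6. The change with that hairpin was 0.20 (95% interval -0.20 to 0.60; limma, adjusted p = 0.575), and the hairpins differed by 0.42 (0.02 to 0.82; unadjusted p = 0.0433, adjusted p = 0.234). Over the 9 members other than SNAI1, the changes with shS100A10_5 ran from -0.25 to 0.30, and their 95% intervals reached no further than -0.75 and 0.89. None of them includes a change in measured signal as large as that of SNAI1. At this number of arrays smaller changes in these genes are not excluded by the intervals. CDH1, CDH2 and TWIST2 lay below the olfactory receptor guide, so their intervals concern a dim signal and do not limit the change of the RNA.

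**Figure D2:**
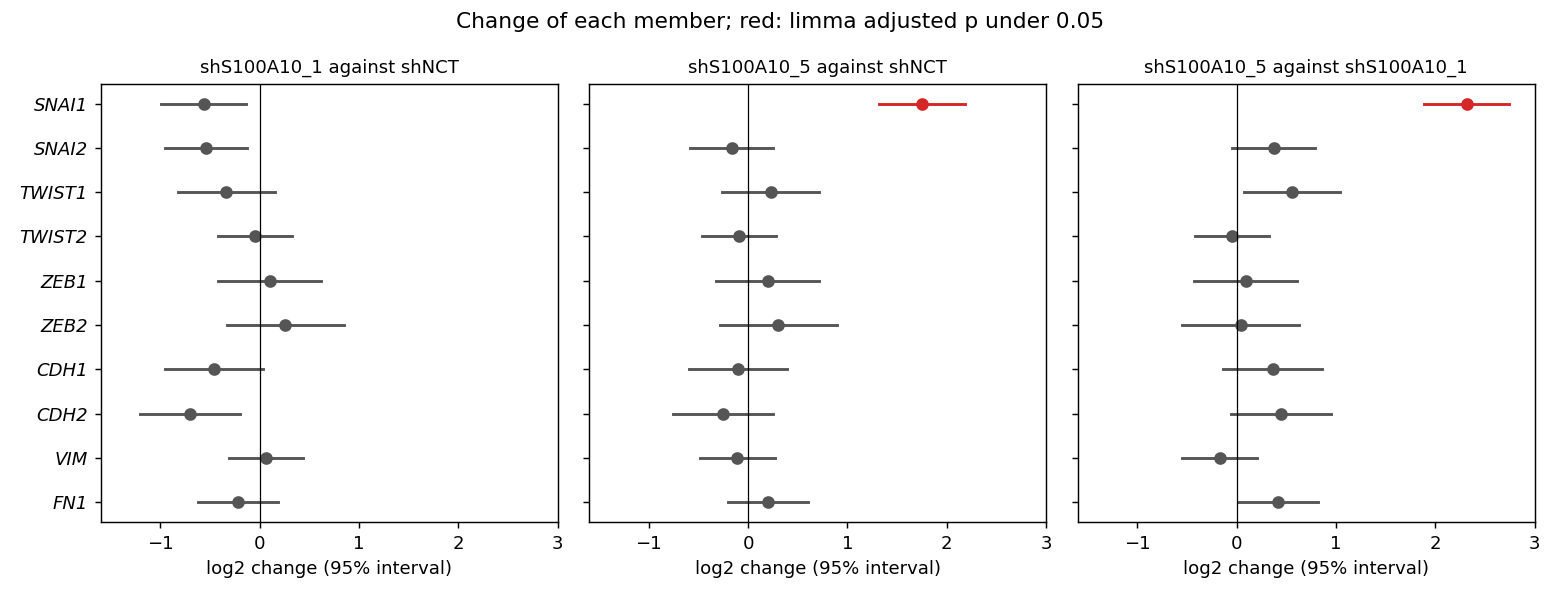
Log2 change (horizontal axis) of each member (vertical axis) with its 95% interval from the limma fit, 1 panel per comparison; red marks an adjusted p under 0.05. SNAI1 stands at 1.75 with shS100A10_5 and at 2.31 between the hairpins, while the other 9 members lie between -0.70 and 0.56 in all 3 panels.

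In the group in which SNAI1 rose, none of the measured genes listed as repressed by SNAI1 passed the test, where few of all probe sets did. Of the 16 listed, 15 were measured (5 of them below the olfactory receptor guide, CDH1 included). With shS100A10_5 limma called 0 higher and 0 lower, beside 1.43% and 1.75% of all probe sets. Below an unadjusted p of 0.05 there were 2 above control and 0 below, against 10.7% and 10.3% of all probe sets. The list divided into 7 positive and 8 negative changes, with a median of -0.02 beside 0.02 over all probe sets. With shS100A10_1 none passed either, beside 0.189% of all probe sets, and the median was 0.01. When p was left unadjusted, 1 was above and 1 below control, beside 4.28% and 4.16% of all probe sets.

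OCLN encodes occludin, a tight junction protein, and it had the highest value of the list, on the side away from repression. Its intensity was 1364 and 1550 with shNCT, 1979 and 1799 with shS100A10_1, and 2192 and 3604 with shS100A10_5. Both hairpins lay above the controls on every array, and replicate 2 of shS100A10_5 stood apart from its partner. The change with shS100A10_5 was 0.95 (95% interval 0.43 to 1.47), which missed the threshold in the fit over all probe sets (limma, adjusted p = 0.0568). It passed when probe sets below the olfactory receptor guide were left out (adjusted p = 0.0280), which called 1152 of 11377 probe sets against 539 of 16965. Without that array it was 0.59 (adjusted p = 0.222), and without its partner 1.31 (adjusted p = 0.0324). CLDN1 (claudin 1) had changes of 0.46 and 0.44 with shS100A10_1 and shS100A10_5 (adjusted p = 0.539 and 0.213), and DSP (desmoplakin) of -0.22 and 0.47 (adjusted p = 0.863 and 0.242). CRB3 and CLDN7, singled out for the hexamers in the windows shown above, had changes with shS100A10_5 of -0.20 and -0.35 (adjusted p = 0.569 and 0.375). With shS100A10_1 the change of CLDN7 was 0.46 (adjusted p = 0.603). Between the hairpins CLDN7 was lower with shS100A10_5 by the most of the list (-0.81, limma, adjusted p = 0.0705). Without probe sets below the guide its adjusted p was 0.0358, where 902 of 11377 probe sets were called against 494 of 16965. Over the list, in the fit over all probe sets, limma called 0 either way between the hairpins. By unadjusted p, 2 were higher and 1 lower with shS100A10_5, beside 10.1% and 9.8% of all probe sets.

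A pair of desmosomal junction genes rose in the same group as SNAI1. Of 25 measured genes of epithelial junctions and identity, JUP and DSG2 rose with shS100A10_5 and none fell, against 1.43% of all probe sets called higher. Under the olfactory receptor guide lay 8 of the 25. With p left unadjusted it was 7 above control and 1 below, beside 10.7% and 10.3% of all probe sets, and the median was 0.10. JUP encodes plakoglobin, which links desmosomal and classical cadherins to the cytoskeleton. Its intensity was 250 and 264 with shNCT, 315 and 339 with shS100A10_1, and 572 and 503 with shS100A10_5, so that the 3 groups did not overlap. JUP rose by 1.06 with shS100A10_5 (95% interval 0.68 to 1.44; limma, adjusted p = 0.0145).

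DSG2, the desmoglein gene of simple epithelia, had intensities of 2406 and 1955 with shNCT, 1871 and 2624 with shS100A10_1, and 4058 and 4211 with shS100A10_5. It rose by 0.93 with shS100A10_5 (95% interval 0.47 to 1.39; limma, adjusted p = 0.0434) and was higher than with shS100A10_1 by 0.90 (adjusted p = 0.0496). DSC2, a desmocollin gene, differed between the hairpins by 1.14 (adjusted p = 0.0117), from changes of -0.54 and 0.59 against shNCT that did not pass (adjusted p = 0.369 and 0.0867). KRT19, a keratin gene of simple epithelia, had the lowest value of the list, -0.81 with shS100A10_5 (adjusted p = 0.0618). The calls of JUP and DSG2 against shNCT were lost when replicate 1 or 2 of shNCT, or replicate 2 of shS100A10_5, was left out, with adjusted p of 0.107, 0.104 and 0.0993 for JUP and 0.116, 0.265 and 0.197 for DSG2, which was also lost without replicate 1 of shS100A10_5 (0.0717). The DSG2 difference between the hairpins was lost when any 1 of the 6 arrays was left out (adjusted p from 0.0552 to 0.285), and that of DSC2 without replicate 2 of shS100A10_5 (0.105) or either shS100A10_1 array.

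**Figure D3:**
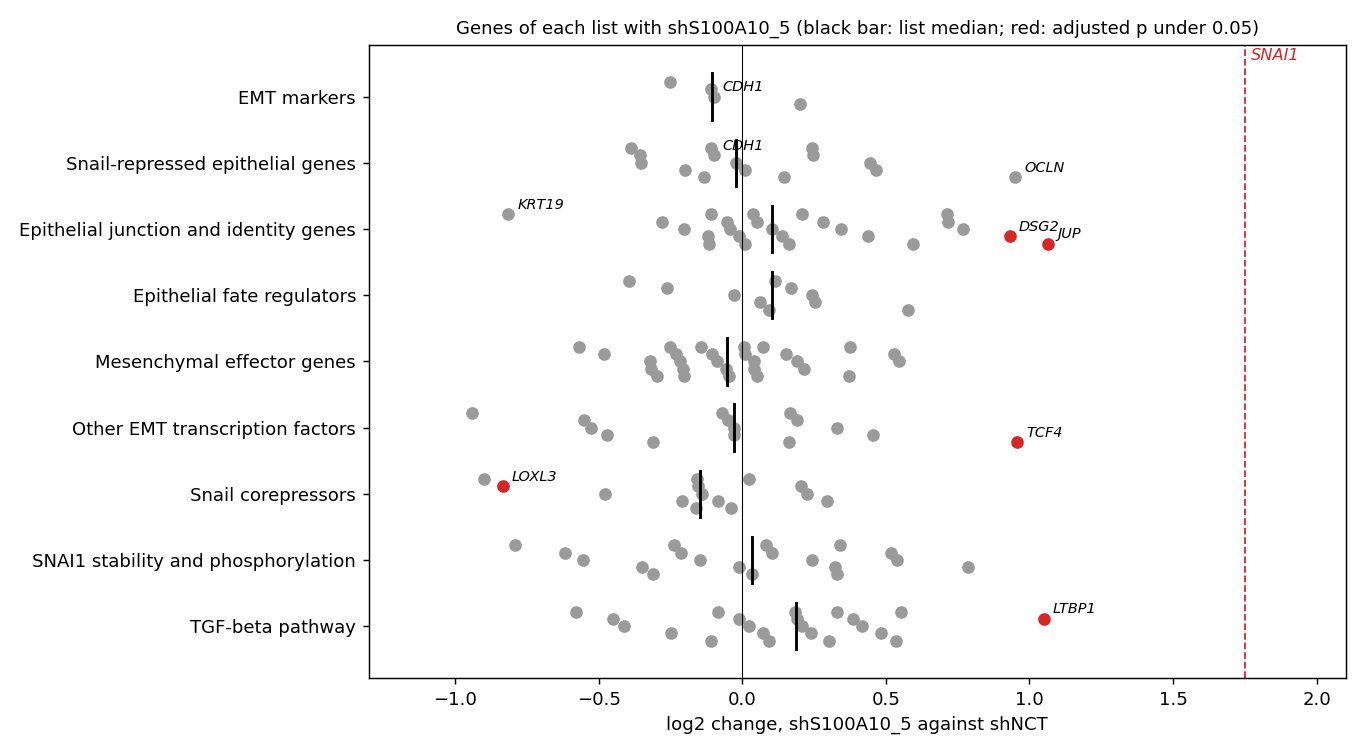
Log2 change with shS100A10_5 against shNCT (horizontal axis) for each measured gene of 9 lists (vertical axis); red points passed limma's adjusted p of 0.05, black bars are list medians and the dashed line is SNAI1 at 1.75. The genes repressed by SNAI1 scatter on both sides of 0 with OCLN highest at 0.95, and the red points to the right are JUP (1.06), DSG2 (0.93), TCF4 (0.96) and LTBP1 (1.05).

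Genes were also sorted by the hexamer instead of by list. Of 12728 named genes with a promoter window, 2374 held 1 copy, 312 held 2 and 64 held 3 or more in the window with the most. With shS100A10_5 the median change was 0.02 for genes without the hexamer, 0.03 with 1 copy, 0.08 with 2 and 0.04 with 3 or more. Among genes with 2 copies 6 rose and 6 fell, or 1.92% each way, and among those with 3 or more 2 rose and 0 fell, beside 1.43% and 1.82% of all 12728. With shS100A10_1 the medians lay between -0.0024 and 0.04. In the group in which SNAI1 rose, the medians of the classes with more copies were thus not below that of genes without the hexamer. These counts are descriptions, and the windows do not cover enhancers or sites farther from the start. No filter on signal was applied, so the classes include genes too dim for a fall to be read.

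**Figure D4:**
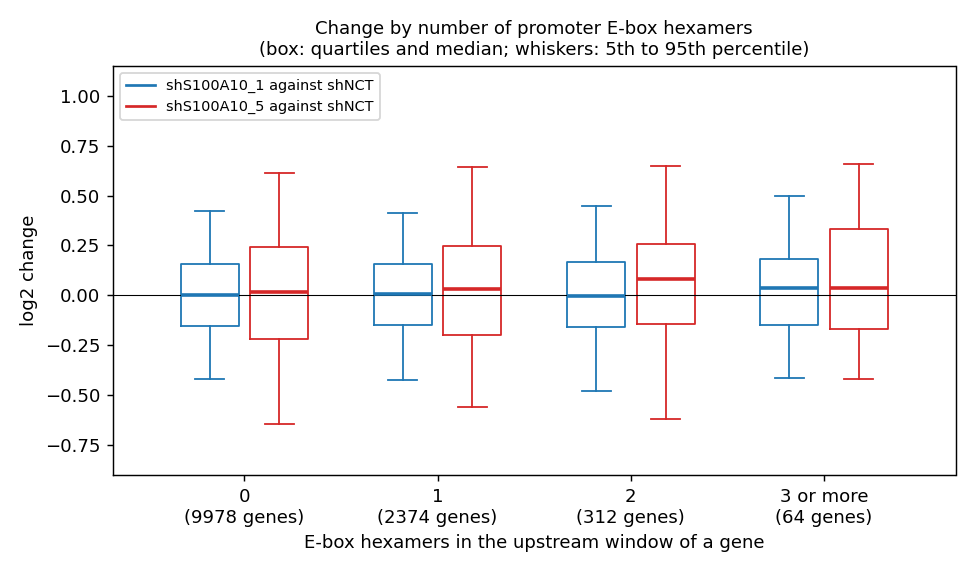
Log2 change against shNCT (vertical axis) for genes grouped by the number of CAGGTG or CACCTG hexamers in the 250 bases before a start (horizontal axis, with the number of genes), for shS100A10_1 in blue and shS100A10_5 in red; boxes give median and quartiles and whiskers the 5th to 95th percentile over genes. The medians with shS100A10_5 are 0.02, 0.03, 0.08 and 0.04, with no downward step as the count grows.

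No mesenchymal effector gene passed the test. Of 28 measured mesenchymal effector genes, limma called none higher and none lower with shS100A10_5, beside 1.43% and 1.75% of all probe sets. Under the olfactory receptor guide lay 8 of the 28. By unadjusted p there were 2 above and 2 below control, beside 10.7% and 10.3% of all, and the median was -0.05. TNC, which encodes the matrix protein tenascin C, had the smallest p, with changes of -0.67 with shS100A10_1 and -0.57 with shS100A10_5 (adjusted p = 0.286 and 0.104). COL6A1, a collagen VI chain, had changes of 0.35 and -0.48, and the TGF-beta-induced matrix gene TGFBI of 0.74 and 0.53, none past the threshold. Of the epithelial fate regulators, 10 were measured and 6 lay under the olfactory receptor guide. They had 0 calls with either hairpin, beside 0.189% of all probe sets with shS100A10_1 and 3.18% with shS100A10_5. With shS100A10_5, 0 of these regulators had an unadjusted p under 0.05, beside 21% of all probe sets. The smallest p there belonged to GRHL3, GRHL1 and KLF4, with changes of 0.58, -0.39 and 0.25.

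Among 15 other EMT transcription factors, TCF4 rose with shS100A10_5 and none fell, beside 1.43% and 1.75% of all probe sets. Under the olfactory receptor guide lay 6 of the 15. TCF4 encodes E2-2, an E protein that dimerizes with TWIST-type factors. Its intensity was 68.8 and 85.7 with shNCT, 68.1 and 77.2 with shS100A10_1, and 135 and 165 with shS100A10_5, above every other array. It rose by 0.96 with shS100A10_5 (95% interval 0.53 to 1.39; limma, adjusted p = 0.0338) and was higher than with shS100A10_1 by 1.04 (adjusted p = 0.0236), which was lost without either shS100A10_1 array or replicate 2 of shS100A10_5 (0.0660 to 0.139). The homeobox gene PRRX1 and SOX4 had changes of -0.94 and -0.53 with shS100A10_5 (adjusted p = 0.130 and 0.136). Without replicate 2 of shS100A10_5 the rise of TCF4 was 0.81 (adjusted p = 0.189), and without replicates 1 and 2 of shNCT, left out in turn, it was 0.80 and 1.12 (0.171 and 0.117).

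Of 14 measured corepressors of Snail, LOXL3, a lysyl oxidase that binds Snail, fell by 0.83 with shS100A10_5 (limma, adjusted p = 0.0479) and none rose, beside 1.75% and 1.43% of all probe sets. The histone methyltransferase gene EHMT2 (-0.90, adjusted p = 0.0608) and the DNA methyltransferase gene DNMT1 (-0.48, adjusted p = 0.170) had the next smallest p. LOXL3 was dim, with a mean log2 level of 5.62, and its call was lost without either shNCT array or replicate 2 of shS100A10_5 (adjusted p from 0.164 to 0.209), and also without replicate 1 of shS100A10_5 (0.0898). None of 19 measured genes for the phosphorylation and turnover of Snail protein passed with shS100A10_5, beside 3.18% of all probe sets, with 2 above control and 3 below by unadjusted p, beside 10.7% and 10.3%. MDM2, a ubiquitin ligase gene, had a change of 0.79, the phosphatase gene DUSP1 of 0.52 and CTDSP1, a phosphatase that acts on Snail, of -0.79 (adjusted p = 0.104, 0.108 and 0.116). RNA arrays do not measure the stability of the protein.

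The TGF-beta pathway, a classical inducer of SNAI1, had 22 measured genes, of which LTBP1 rose with shS100A10_5 and none fell, beside 1.43% and 1.75% of all probe sets. LTBP1 encodes a matrix protein that stores latent TGF-beta. Its intensity was 269 and 360 with shNCT, 324 and 426 with shS100A10_1, and 577 and 719 with shS100A10_5, a rise of 1.05 (95% interval 0.56 to 1.54; limma, adjusted p = 0.0360). By unadjusted p, 6 were above control and 2 below, beside 10.7% and 10.3% of all probe sets. With shS100A10_1, where SNAI1 did not rise, 4 were above and 0 below, beside 4.28% and 4.16%. Positive changes numbered 15 of 22 with shS100A10_5 and 17 of 22 with shS100A10_1. The receptor genes TGFBR2 and TGFBR3 had changes of 0.55 and 0.54 with shS100A10_5 (limma, adjusted p = 0.120 and 0.128). TGFBR3 was highest with shS100A10_1, at mean log2 levels of 8.92 with shNCT, 9.80 with shS100A10_1 and 9.46 with shS100A10_5. Between the hairpins, the ligand gene TGFB1 differed by -1.06 log2 (limma, adjusted p = 0.0421) and the corepressor gene TGIF1 by -0.79 (adjusted p = 0.0428), both lower with shS100A10_5. Against shNCT, TGFB1 had changes of 0.49 with shS100A10_1 and -0.58 with shS100A10_5 (adjusted p = 0.621 and 0.191). Both differences between the hairpins passed without replicate 1 of shS100A10_5 and were lost without each of the other 5 arrays (adjusted p from 0.0604 to 0.183 for TGFB1 and from 0.0737 to 0.221 for TGIF1). The LTBP1 call was lost without either shNCT array or replicate 2 of shS100A10_5 (adjusted p from 0.103 to 0.201).

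The genes whose log2 profile over the 6 arrays was most like that of SNAI1, among 15668 others, were CYP1A1, a cytochrome P450 gene (Pearson's r = 0.994), the activin receptor gene ACVR2A (0.992), the small GTPase gene RALB (0.989), PLEKHA1 (0.988) and the lipid kinase gene PIP4K2A (0.988). They were picked for this likeness from many genes over few arrays in 3 groups, so the values are a description. With shS100A10_5, CYP1A1 had a change of 1.68, close to that of SNAI1, and the others of 0.37 to 0.61. The values of ACVR2A, RALB and PIP4K2A between the hairpins were 0.77, 0.87 and 0.80. None of the other 9 members was among the 5 most alike.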

How the data were processed

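RNA was hybridised to 1-colour arrays, 2 per group. The authors deposited 1 normalized intensity per probe set and array, handled with Transcriptome Analysis Console per the submitters' processing notes; no version, normalization or background correction is given in the sources used here. The deposited table has no detection calls and names no batch. Here log2 of each intensity was fitted with limma 3.58.1 (R 4.3.3; lmFit and eBayes on group means, 3 comparisons, 3 residual degrees of freedom), with Benjamini-Hochberg adjustment over all 16965 probe sets and a threshold of 0.05. The fit was tested on simulated data. Probe sets were named from GEO's platform table: 15674 had 1 symbol and 1291 none, and for a gene with several the brightest was used. Members and gene lists were chosen with earlier results of these data known. Named are the members, S100A10, each list's genes past the threshold in any comparison, its 3 smallest p for shS100A10_5 against shNCT and the 5 profiles most like SNAI1; CRB3, CLDN7 and marker genes were added for what they show. Promoter windows were read from RefSeq's table. Alternatives were other normalizations, dim filters, variance priors, array weights, a pseudocount of 16, a replicate block and leaving out each array.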

Additional observations from a re-analysis of the deposited data

Results flagged for a closer look

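The effects of the 2 hairpins, each against shNCT, differed from each other past limma's adjusted p of 0.05 for 7 genes of the EMT and marker lists. Over all 16965 probe sets 494 did, or 2.91%. The 7 were 1 of 10 members, 2 of 25 junction genes, 1 of 15 other EMT transcription factors, 2 of 22 TGF-beta genes and 1 of 4 luminal markers. Each was picked out by that test of the difference (shS100A10_5 minus shS100A10_1, on the log2 scale). For SNAI1 the difference was 2.31 (adjusted p = 0.00102), from -0.56 with shS100A10_1 and 1.75 with shS100A10_5. For the desmosomal genes DSC2 and DSG2 it was 1.14 and 0.90, and for the E protein gene TCF4 it was 1.04. For the TGF-beta genes TGFB1 and TGIF1 it was -1.06 and -0.79. For SPDEF, a luminal transcription factor gene, it was -1.03 (adjusted p = 0.0203), which was lost without either shS100A10_1 array or replicate 2 of shS100A10_5 (0.0520 to 0.140). Against shNCT, SNAI1, DSG2 and TCF4 were called with shS100A10_5, and DSC2, TGFB1, TGIF1 and SPDEF with neither hairpin. The target gene S100A10 also differed between the hairpins (2.70, adjusted p = 0.00102). CYP1A1, ACVR2A, RALB and PIP4K2A were chosen for their likeness to SNAI1 on these same arrays. That choice favours genes that differ between the hairpins as SNAI1 does. Their adjusted p by limma (0.00261, 0.0418, 0.0276 and 0.0366) are therefore no separate result.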

How the results depend on the processing

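Over 17 alternatives, 481 of 498 values of the members kept their direction and side of the threshold. Of the 498, 447 belonged to members other than SNAI1, which had passed in no comparison, and 432 of these kept both. The alternatives were not all separate. Leaving out an array of the group not compared repeated the fit with only the groups compared, and averaging probe sets left the log2 changes of genes with 1 probe set as they were. The rise of SNAI1 with shS100A10_5 was 1.55 to 1.95 over the fits that left out 1 array and was not called in 2 of them, so the count of members called was 0 to 1; over the other settings it was 1.50 to 1.77 and called each time. The olfactory receptor filter is no separate support there: SNAI1 passes it through its shS100A10_5 level, since the other groups average 5.51, below the guide of 5.72. Between the hairpins it was 2.12 to 2.51 with an array left out and 1.92 to 2.32 otherwise, called each time; with shS100A10_1 it was -0.69 to -0.43 and -0.57 to -0.42, never called. Of genes repressed by SNAI1, with shS100A10_5 the count was 1 (OCLN, higher) in place of 0 under either dim filter, the intensity trend, the pseudocount, the replicate block and an adjusted p of 0.1, and 0 to 1 with an array left out; between the hairpins it was 1 (CLDN7, lower) under the same settings other than the block, and 0 to 2 with an array left out. Among members not called, leaving out 1 array turned the sign, and the cause was not tested: with shS100A10_5, SNAI2 ran from -0.36 to 0.035, TWIST1 from -0.087 to 0.54, ZEB1 from -0.14 to 0.53, ZEB2 from -0.075 to 0.68 and CDH1 from -0.37 to 0.17; with shS100A10_1, TWIST2 from -0.10 to 0.0084, ZEB1 from -0.056 to 0.26 and VIM from -0.023 to 0.15; between the hairpins, TWIST2 from -0.10 to 0.013, ZEB1 from -0.24 to 0.42 and ZEB2 from -0.34 to 0.42. For S100A10 and listed genes other than the members, 15 results had passed. Over the alternatives 70 of their 254 values no longer passed, none of them for S100A10, and 0 reversed. Named genes that had not passed were not in this count. Over all probe sets, calls with shS100A10_5 numbered 539. The dim filters, which kept 12723 and 11377 probe sets, gave 952 and 1152. The intensity trend gave 1454, the pseudocount 1045 and array weights 242. With shS100A10_1 the calls were 32, against 60, 71, 98, 58 and 89, and 16 with only the groups compared. Between the hairpins they were 494, against 791, 902, 1144, 882 and 287, and 291 with only the groups compared. With an array left out these were 3 to 994, 8 to 16 and 7 to 656. Deviations of arrays with the same number correlated at -0.02, -0.03 and 0.19 between groups, so the numbers were not taken as pairs; the replicate block gave 625, 33 and 561 calls and a SNAI1 rise of 1.75 (limma, adjusted p = 0.00638). The filter at the olfactory receptor level removed CDH1, CDH2 and TWIST2, whose signal sets the limit of what can be read from them.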
